A study of Homo sapiens with 13 samples.

Results

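The TEAD transcription factors (*TEAD1*, *TEAD2*, *TEAD3* and *TEAD4*), their coactivators *YAP1* and *WWTR1* (the gene of TAZ), the TEAD cofactor *VGLL4* and the Hippo kinases *STK3*, *LATS1* and *LATS2* were followed in 2 small cell lung cancer (SCLC) cell lines treated with FHD-286. These 10 genes were chosen by name, from what their proteins do in the Hippo pathway, out of 56831 genes listed in the tables. H82 and H146 are established human SCLC lines, assigned by the study to the *NEUROD1*-high subtype (H82) and to the other high-neuroendocrine subtype (H146), and both are given as WT. FHD-286 is an allosteric inhibitor of SMARCA2 and SMARCA4, the ATPases of the SWI/SNF chromatin remodelling complexes. H82 was sequenced as 3 untreated and 3 treated RNA libraries and H146 as 3 untreated and 4 treated ones, with FHD-286 given at 100 nM for 14 days and no agent in the untreated cells. Each subtype is represented by 1 cell line. The labels do not say whether the libraries of a group came from separate cultures, so the *p* values measure only the spread between these samples, which may be technical.

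In the Hippo pathway, STK3 and its partner kinases activate LATS1 and LATS2, and these phosphorylate YAP1 and TAZ, which are then held in the cytoplasm or degraded. YAP1 and TAZ that escape enter the nucleus, where they do not bind DNA themselves but act through the TEAD proteins, while VGLL4 competes with them for the same partners. In SCLC, high-neuroendocrine tumours are known for very low YAP1, and YAP1 is found in the low-neuroendocrine forms of the disease.

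The values are TPM (length-corrected transcript abundance, scaled so that each library sums to 1000000). The length correction lets genes be set side by side within a library. Between libraries each value is a share of that fixed sum, and some calls below changed when the libraries were scaled otherwise. The tables hold no read numbers, so the depth is unknown and counting intervals cannot be drawn. At 1 TPM or more, 15554 to 16633 genes were seen in treated and 21227 to 21772 in untreated H82, against 18778 to 19309 and 17476 to 17965 in H146. Changes are differences of the mean log2(TPM + 1), fitted with limma in each line over genes that reached 1 TPM in 3 or more libraries, and adding 1 understates the change of genes near or below 1 TPM. With a two-sided threshold of 0.05 on the Benjamini-Hochberg adjusted *p*, treated H82 had 2588 higher and 8996 lower genes of 19770, and treated H146 had 6356 higher and 3033 lower of 19585. Over all of them the median log2 fold change was -0.56 (H82) and 0.25 (H146). Scaled by the median of ratios, these medians became -0.14 and -0.02. Lower genes made up 77.7% of the calls in H82, or 57.6% after that scaling, and 32.3% of those in H146, or 54.1%. Quantile normalization gave shares of 52.3% and 46.9%. On unscaled TPM, a member at 0 therefore lies above the median of all tested genes in H82 and below it in H146.

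Several features of the libraries touch the results. Of 134 genes on in untreated H146 and off in untreated H82, 57 reached 1 TPM in treated H82 replicate 2, against 21 in replicate 1 and 13 in replicate 3, with summed levels of 465, 90.5 and 45.0 TPM (11525 TPM in untreated H146). The calls, list counts and TEAD make-up for H82 are therefore also given without that library. Treated H82 replicate 1 stood apart over all genes (median absolute log2 difference 0.458 and 0.446 from replicates 2 and 3, which were 0.168 apart). Of the treated H82 libraries it had the lowest *TEAD1*, *TEAD2*, *TEAD4*, *YAP1*, *WWTR1*, *VGLL4*, *STK3* and *LATS1*. Without it, 3 of 8 tested members were called higher and 3 lower, beside 3503 and 9957 of 19058 genes. *TEAD4* was then among the higher ones, and *YAP1* was not tested. In treated H146, replicates 3 and 4 lay close to each other (median absolute log2 difference over genes 0.120), and 1 and 2 lay further from them (0.298 to 0.467). Mitochondrial transcripts held 22.1% to 24.1% of the TPM in untreated and 12.3% to 14.9% in treated H82, and 7.56% to 8.86% and 3.82% to 11.4% in H146. The part of these features in the results was not tested beyond the values given without a library. The 6 neuroendocrine markers summed to 700 to 781 TPM in untreated and 266 to 736 TPM in treated H82, and to 1441 to 1751 and 1030 to 1289 TPM in H146, with 1 of the 6 below a mean of 1 TPM in both groups of H146.

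Of the 10 genes, 9 passed the filter in H82, where 3 were higher with FHD-286 (*TEAD2*, *YAP1*, *WWTR1*), 3 were lower (*TEAD1*, *TEAD3*, *LATS1*) and 3 did not pass the test (*TEAD4*, *VGLL4*, *STK3*). Over all tested genes of H82, 58.6% were called in either direction, 13.1% higher and 45.5% lower. In H146, 9 passed the filter, 3 were higher (*TEAD2*, *WWTR1*, *LATS2*), 0 were lower (also 0 at an unadjusted limma *p* under 0.05) and 6 did not pass, where 47.9% of all tested genes were called, 32.5% higher and 15.5% lower. The genes called higher in both lines were *TEAD2* and *WWTR1*, the latter near the threshold in H82. *LATS2* in H82 and *YAP1* in H146 did not reach the filter, although *YAP1* was higher in every treated than in every untreated library of both lines. Treated and untreated libraries did not overlap for 6 of the 9 tested genes in H82 and for 4 of 9 in H146, against 67.8% and 52.9% of all tested genes. In H82 the treated libraries were all above for 3 members and all below for 3 (16.4% and 51.4% of all tested genes), and in H146 all above for 4 and all below for 0 (35.7% and 17.3%). These shares lie near the background, so what follows describes the direction and size of each gene rather than how many changed. The median log2 fold change of the tested members was 0.19 in H82 and 0.35 in H146.

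**Figure D1:**
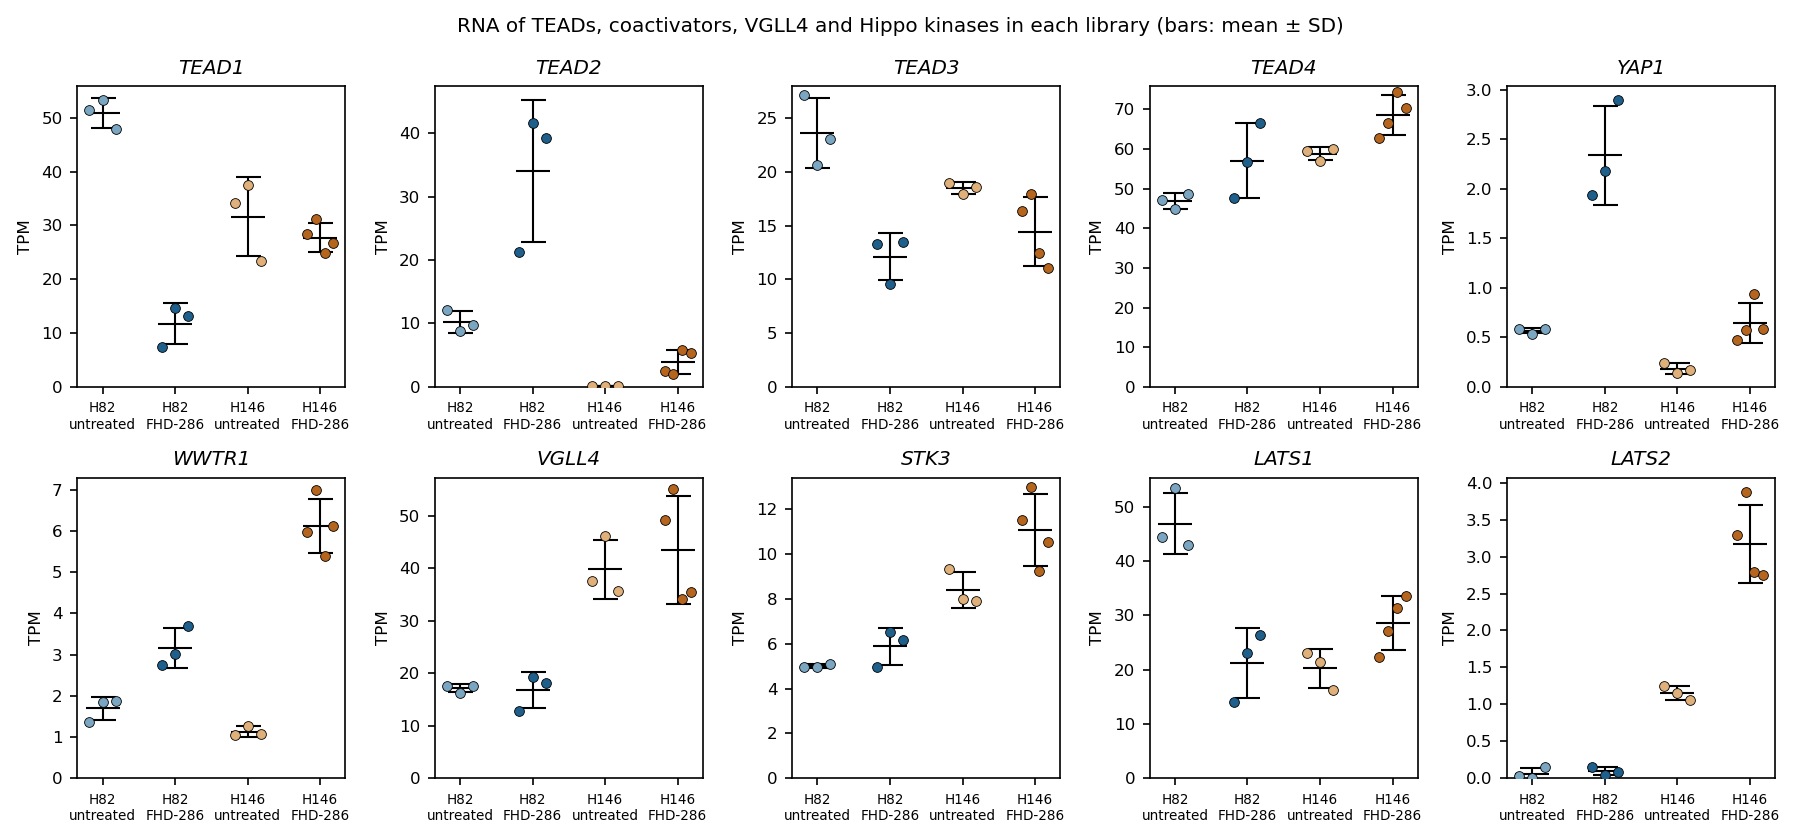
TPM of each of the 10 genes in each library of untreated and FHD-286-treated H82 and H146 (linear axes from 0, 1 point per library, bars for the mean ± SD). *TEAD1* is lowest in the treated H82 libraries, at 7.37 to 14.6 TPM, whereas *TEAD2*, *YAP1* and *WWTR1* lie higher in every treated library of both lines.

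The 3 genes that rose in H82 are shown first with the sequence just upstream of their start sites, since they moved in the same direction there. The windows are the 250 bases before an annotated transcription start in RefSeq (GRCh38.p14), written from 5′ to 3′ on the strand of the gene. *WWTR1* is shown at both of the starts listed for it, and *TEAD2* at the outer of 2 listed. The coordinates given below for the *WWTR1* gene reach further upstream than both of these starts. Capitals mark a match to a TEAD motif (CATTCC, or GGAATG on the other strand) or to an E-box (CAGCTG, or CATCTG and its reverse complement CAGATG), the element that proneural factors such as NEUROD1 bind. The CAGCTG motif reads the same on both strands, and none of the motifs searched overlap in these windows.
*TEAD2*, chr19:49362417-49362666, minus strand: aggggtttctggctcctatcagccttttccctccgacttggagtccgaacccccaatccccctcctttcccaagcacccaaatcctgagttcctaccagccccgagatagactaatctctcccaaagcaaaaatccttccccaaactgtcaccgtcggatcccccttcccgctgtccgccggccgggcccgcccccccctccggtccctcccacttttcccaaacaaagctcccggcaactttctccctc
*YAP1*, chr11:102110197-102110446, plus strand: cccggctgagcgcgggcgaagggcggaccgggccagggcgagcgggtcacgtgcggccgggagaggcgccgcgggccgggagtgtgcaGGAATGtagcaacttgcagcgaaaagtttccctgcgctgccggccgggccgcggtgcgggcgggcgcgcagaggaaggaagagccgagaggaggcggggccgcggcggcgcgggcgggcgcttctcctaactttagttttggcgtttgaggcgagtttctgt
*WWTR1*, upstream start, chr3:149703274-149703523, minus strand: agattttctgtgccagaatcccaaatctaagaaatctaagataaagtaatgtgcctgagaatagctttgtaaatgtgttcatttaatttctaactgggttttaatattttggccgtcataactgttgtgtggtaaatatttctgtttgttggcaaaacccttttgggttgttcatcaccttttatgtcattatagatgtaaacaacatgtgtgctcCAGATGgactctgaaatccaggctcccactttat
*WWTR1*, downstream start, chr3:149658026-149658275, minus strand: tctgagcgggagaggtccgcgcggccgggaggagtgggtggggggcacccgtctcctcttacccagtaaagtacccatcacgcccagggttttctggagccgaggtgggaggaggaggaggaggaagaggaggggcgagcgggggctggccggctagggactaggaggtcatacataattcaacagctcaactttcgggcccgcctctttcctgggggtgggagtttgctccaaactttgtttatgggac

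The *YAP1* window holds 1 TEAD motif, 162 bases before the start, and the upstream *WWTR1* window holds 1 E-box of the forms searched, 34 bases before it. Other forms of the E-box were not searched in any window and are not marked. Both *TEAD2* windows, the one not shown included, and the downstream *WWTR1* window hold none of these letters. The windows differ in base composition, with 72% G and C for *YAP1*, 60% for the *TEAD2* window shown, 62% for the downstream *WWTR1* start and 35.2% for the upstream one, against a median of 58% over all 35116 windows. Across all windows 11.9% held the TEAD motif and 24.3% an E-box of either form. Windows were listed for 7 of the 10 genes, 14 in all, of which 1 held a TEAD motif and 2 held an E-box (the other in *VGLL4*). A match of letters is a description and does not show binding, which was not measured in these libraries.

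*TEAD1* (ENSG00000187079.20, chr11:12674421-12944737, plus strand, hg38) encodes a widely expressed TEAD factor. It stood at 51.4, 53.3 and 47.8 TPM in the untreated H82 libraries and at 7.37, 14.6 and 13.1 TPM with FHD-286. Every treated library lay far below every untreated one. The mean was 50.8 ± 2.75 TPM (SD, n = 3) without and 11.7 ± 3.83 TPM (SD, n = 3) with drug, which is 4.35-fold lower, and the log2 fold change was -2.08 (SE 0.25, 95% confidence interval -2.66 to -1.49, limma adjusted *p* = 0.000609). Without treated replicate 2 it was -2.25 (limma adjusted *p* = 0.0015).

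In H146 *TEAD1* was at 34.1, 37.5 and 23.3 TPM in untreated and at 28.4, 31.1, 24.8 and 26.7 TPM in treated libraries. These ranges overlap, and the treated values lie inside the untreated range. This gave a log2 fold change of -0.16 (95% confidence interval -0.56 to 0.24, limma adjusted *p* = 0.478). It passed the threshold with library weights (-0.37, limma adjusted *p* = 0.0236) and after scaling by the median of ratios (-0.47, limma adjusted *p* = 0.0474). The change differed between the lines by 1.92 (H146 minus H82, 95% confidence interval 1.24 to 2.59, limma interaction adjusted *p* = 0.000236), and by 1.14 after scaling by the median of ratios (limma interaction adjusted *p* = 0.00537). Such a difference passed the test for 59.3% of 24374 genes, and in the same direction for 46% of them.

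*TEAD2* (ENSG00000074219.14, chr19:49340595-49362457, minus strand) encodes the TEAD factor best known from the early embryo and neural progenitors. In H82 it was at 12.1, 8.79 and 9.75 TPM without and at 21.2, 41.6 and 39.2 TPM with FHD-286. All treated libraries lay above all untreated ones, and replicate 1 was the lowest of the treated. The mean rose 3.33-fold, from 10.2 ± 1.70 to 34.0 ± 11.2 TPM (SD, n = 3 each), with a log2 fold change of 1.60 (SE 0.28, 95% confidence interval 0.94 to 2.25, limma adjusted *p* = 0.00264) and of 1.43 without treated replicate 2 (limma adjusted *p* = 0.00993).

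In untreated H146 *TEAD2* was close to the floor of the table, at 0.130, 0.161 and 0.146 TPM. With FHD-286 it was at 2.47, 2.00, 5.83 and 5.31 TPM, in each library above every untreated value, and the libraries that lay close to each other over all genes (replicates 3 and 4) were the higher ones. The mean was 3.90 ± 1.95 TPM (SD, n = 4), 26.8-fold the untreated mean, and the log2 fold change on log2(TPM + 1) was 2.01 (SE 0.31, 95% confidence interval 1.29 to 2.72, limma adjusted *p* = 0.00133). Even so, treated H146 stayed below untreated H82, with no overlap between any neighbours in the order of the 4 groups.

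The difference in the *TEAD2* change between the lines depended on the scale. It was 0.41 on log2(TPM + 1) (95% confidence interval -0.57 to 1.39, limma interaction adjusted *p* = 0.451), but 2.21 with 0.1 added in place of 1 (limma interaction adjusted *p* = 0.00487). The strand used in counting is not stated, and *TEAD2* overlaps *CD37* and *DKKL1* on the opposite strand, so reads of these genes cannot be told apart with certainty. *CD37* was at 7.85 to 11.9 TPM without and at 1.70 to 2.82 TPM with drug in H82, and was at most 0.902 TPM in H146. *DKKL1* was at 1.07 to 2.10 and 1.80 to 8.10 TPM in H82 and at most 0.364 TPM in H146.

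*TEAD3* (ENSG00000007866.22, chr6:35473597-35497079, minus strand) encodes a TEAD factor that is abundant in placenta. It was at 27.1, 20.7 and 23.1 TPM in untreated and at 13.3, 9.57 and 13.5 TPM in treated H82. The groups do not overlap. *TEAD3* changed by -0.91 on the log2 scale (SE 0.19, 95% confidence interval -1.37 to -0.46, limma adjusted *p* = 0.00582), 1.95-fold lower by the means. It was -0.76 without treated replicate 2 (limma adjusted *p* = 0.0173), and the call was lost when libraries were scaled by the median of ratios (-0.45, limma adjusted *p* = 0.0888) or by quantiles (-0.43, limma adjusted *p* = 0.0901).

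In H146 *TEAD3* was at 19.0, 17.9 and 18.6 TPM without and at 16.3, 18, 12.4 and 11.1 TPM with drug. The untreated libraries were tight, and treated replicates 1, 3 and 4 lay below them while replicate 2 lay among them. The log2 fold change of -0.36 did not pass (95% confidence interval -0.77 to 0.05, limma adjusted *p* = 0.128). It did pass with the median of ratios (-0.66, limma adjusted *p* = 0.0259), with quantile normalization (-0.59, limma adjusted *p* = 0.0421), with library weights (-0.55, limma adjusted *p* = 0.00143) and without treated replicate 2 (-0.47, limma adjusted *p* = 0.0332). The difference between the lines was 0.55 (95% confidence interval -0.02 to 1.13, limma interaction adjusted *p* = 0.0872), and 0.66 without treated H146 replicate 4 (limma interaction adjusted *p* = 0.0396).

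*TEAD4* (ENSG00000197905.10, chr12:2959330-3040676, plus strand) encodes the TEAD factor needed for the trophectoderm of the embryo and found in many tumours. It was at 47.0, 44.7 and 48.7 TPM in untreated and at 47.6, 56.8 and 66.6 TPM in treated H82. Replicate 1 of the treated cells fell among the untreated libraries and the other two lay above them. The difference was 0.27 on the log2 scale (95% confidence interval -0.11 to 0.64, limma adjusted *p* = 0.187), with 0.26 without treated replicate 2 (limma adjusted *p* = 0.304), and it passed without treated replicate 1 (0.39, limma adjusted *p* = 0.0122), with the median of ratios (0.75, limma adjusted *p* = 0.00345), with quantile normalization (0.40, limma adjusted *p* = 0.0188) and with library weights (0.35, limma adjusted *p* = 0.0114).

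In H146 *TEAD4* was at 59.6, 57.0 and 60.0 TPM in untreated and at 62.7, 66.6, 74.4 and 70.2 TPM in treated libraries. Each treated library lay above each untreated one, but by little. The log2 fold change of 0.21 did not pass (95% confidence interval -0.03 to 0.46, limma adjusted *p* = 0.129). With library weights it passed (0.30, limma adjusted *p* = 0.0056), and with the median of ratios the sign turned (-0.10, not past). The difference between the lines was -0.05 (95% confidence interval -0.43 to 0.33), and with the median of ratios it was -0.85 (limma interaction adjusted *p* = 0.000525).

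On unscaled TPM, the TEAD genes of H82 changed more in make-up than in sum. The summed TEAD level was 138, 127 and 129 TPM in untreated H82 and 89.6, 123 and 132 TPM in treated H82, with replicates 1 and 2 below the untreated range and replicate 3 within it. In H146 the sum was 113, 113 and 102 TPM without and 109.9, 118, 117 and 113 TPM with drug, so the groups overlap on this scale. In H82 *TEAD1* held 38.7% ± 2.67 of the sum without and 10.0% ± 1.86 with FHD-286 (SD, n = 3 each), while *TEAD2* held 7.74% ± 0.963 and 29.1% ± 5.15. *TEAD4* took up 35.6% ± 1.82 and 49.9% ± 3.46, and *TEAD3* 17.9% ± 1.74 and 11% ± 3.61. The order of the family in H82 thus passed from *TEAD1*, *TEAD4*, *TEAD3*, *TEAD2* to *TEAD4*, *TEAD2*, with *TEAD3* and *TEAD1* close together at the end.

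In H146 *TEAD4* was the leading TEAD gene in both groups, with 54.1% ± 4.22 (SD, n = 3) of the sum without and 59.7% ± 3.42 (SD, n = 4) with drug. *TEAD1* held 28.8% ± 5.39 and 24.2% ± 2.41, and *TEAD3* 17.0% ± 1.17 and 12.6% ± 2.85. The shares of *TEAD4* and *TEAD1* overlap between the groups, and those of *TEAD3* do not. *TEAD2* went from 0.134% ± 0.0164 to 3.40% ± 1.66 and remained the least abundant. These shares are within a library, so a single scaling factor per library, such as the median of ratios, leaves them as they are. They were not computed after quantile normalization. The sums do move with such a factor, by which values are divided. By the median of ratios it was 1.18 to 1.21 in untreated and 0.807 to 0.878 in treated H82. In H146 it was 0.832 to 0.918 and 1.05 to 1.16, and the sums were not computed on that scale. Without treated replicate 2, the mean summed TEAD level in treated H82 was 111 TPM, and the *TEAD2* share was 26.7%.

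**Figure D2:**
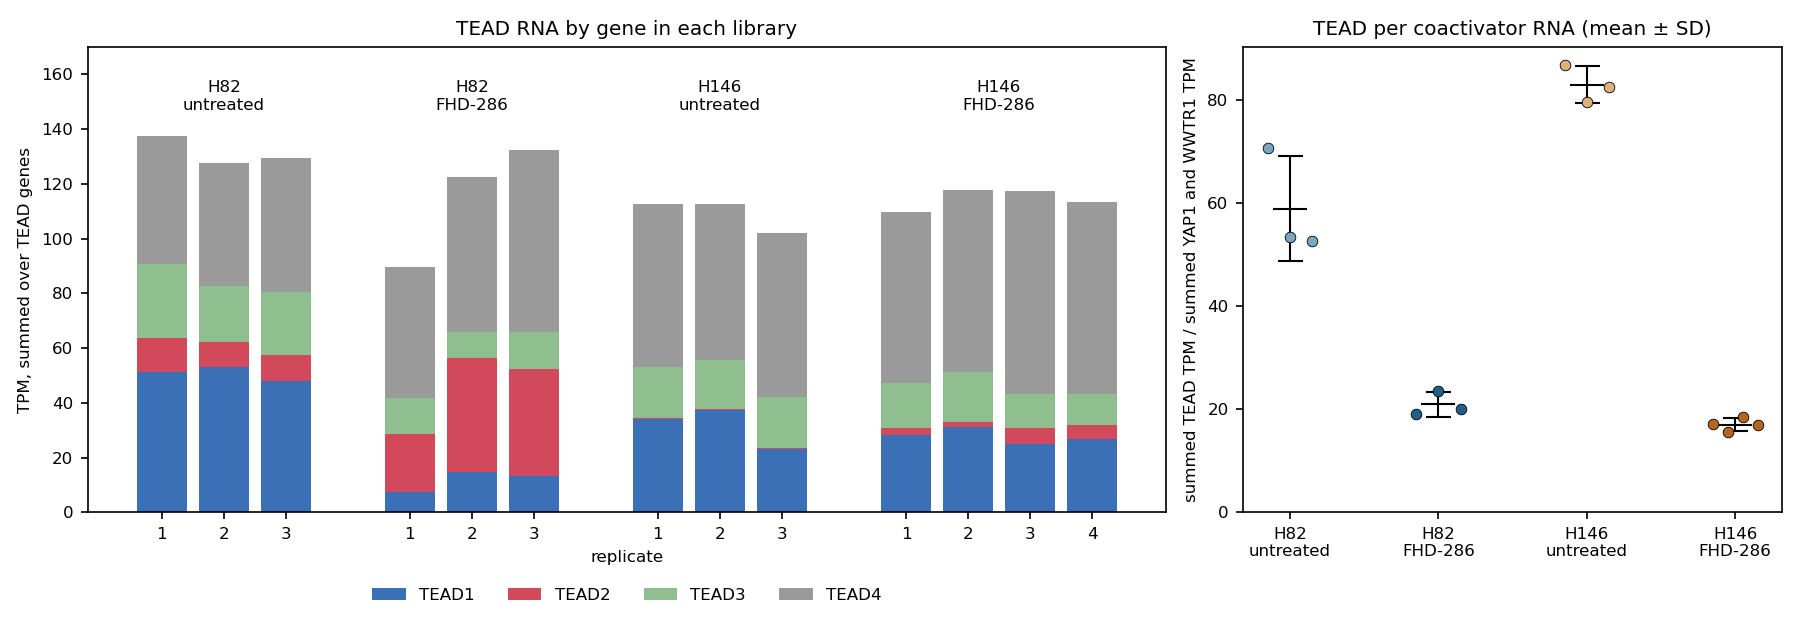
Left, TPM of *TEAD1* to *TEAD4* stacked for each library of the 4 groups. Right, the summed TEAD TPM divided by the summed *YAP1* and *WWTR1* TPM (points for libraries, bars for the mean ± SD). The *TEAD2* part of the column widens with FHD-286 in H82, from 7.74% to 29.1% on average, and the ratio on the right is at 15.5 to 23.6 in every treated library and at 52.6 to 86.7 in every untreated one.

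*YAP1* (ENSG00000137693.14, chr11:102110447-102233424, plus strand) encodes the main coactivator of the TEAD proteins. In untreated H82 it was at 0.579, 0.535 and 0.585 TPM, and with FHD-286 at 1.94, 2.18 and 2.90 TPM. The lowest treated library was still above every untreated one. The mean rose 4.13-fold, from 0.566 ± 0.0271 to 2.34 ± 0.499 TPM (SD, n = 3 each), with a log2 fold change of 1.08 (SE 0.19, 95% confidence interval 0.62 to 1.54, limma adjusted *p* = 0.00295). It was 1.87 after quantile normalization (limma adjusted *p* = 0.000866). *YAP1* reached 1 TPM only in the 3 treated H82 libraries, so without any one of them it dropped out of the test.

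In H146 *YAP1* was at 0.245, 0.137 and 0.166 TPM in untreated and at 0.471, 0.575, 0.937 and 0.588 TPM in treated libraries. It did not reach the filter, although the groups do not overlap and the treated mean was 3.51-fold the untreated one. The difference of mean log2(TPM + 1) was 0.47 (two-sided exact permutation *p* = 0.0571, the smallest that 3 against 4 libraries can give). That test could therefore not pass a threshold of 0.05. In the limma fit without the filter, 4 of the 10 genes were called higher in H146, *YAP1* among them. The change was smaller than in H82 by 0.61 on log2(TPM + 1) (95% confidence interval of the difference -1.08 to -0.15, limma interaction adjusted *p* = 0.027), and by more after scaling (-1.0 by the median of ratios, limma interaction adjusted *p* = 0.0011, and -1.60 by quantiles, limma interaction adjusted *p* = 0.000233). This call did not hold with 0.1 added in place of 1 (-0.48, limma interaction adjusted *p* = 0.394) or without any single untreated H82 library or untreated H146 replicate 1 or 3 (limma interaction adjusted *p* = 0.0509 to 0.0679), and *YAP1* was not tested without any one treated H82 library. Treated H146 and untreated H82 overlapped in level.

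*WWTR1* (ENSG00000018408.15, chr3:149517235-149736714, minus strand) encodes TAZ, the paralog of YAP1. In H82 it was at 1.37, 1.85 and 1.87 TPM without and at 2.76, 3.02 and 3.70 TPM with FHD-286. The groups do not overlap. The mean rose 1.86-fold and the log2 fold change was 0.62 (SE 0.20, 95% confidence interval 0.15 to 1.10, limma adjusted *p* = 0.0315). After scaling it was larger, 0.96 with median-of-ratios factors and 1.53 by quantiles (limma adjusted *p* = 0.00563 and 0.00175). The call is near the threshold. It was lost without the filter (limma adjusted *p* = 0.0894), among genes with a mean above 2 TPM (limma adjusted *p* = 0.0578), and without any one untreated library (limma adjusted *p* = 0.0857 to 0.170) or without treated replicate 2 (0.64, limma adjusted *p* = 0.0657) or 3 (0.53, limma adjusted *p* = 0.101).

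In H146 *WWTR1* was at 1.06, 1.28 and 1.07 TPM in untreated and at 5.97, 7.0, 5.39 and 6.13 TPM in treated libraries. The treated libraries lay together, well above the untreated ones. The mean rose 5.40-fold, from 1.13 ± 0.124 (SD, n = 3) to 6.12 ± 0.665 TPM (SD, n = 4), and the log2 fold change was 1.74 (SE 0.16, 95% confidence interval 1.37 to 2.10, limma adjusted *p* = 0.00011). It passed the test under every alternative run with a test. The rise exceeded that in H82 by 1.11 (95% confidence interval 0.62 to 1.60, limma interaction adjusted *p* = 0.00113), but with the median of ratios the difference was 0.51 (limma interaction adjusted *p* = 0.0753) and with quantile normalization it was -0.30 (limma interaction adjusted *p* = 0.331). Untreated H146 had the lowest *WWTR1* of the 4 groups and treated H146 the highest, and none of the neighbours in that order overlap.

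Together, *YAP1* and *WWTR1* summed in H82 to 2.26 ± 0.277 TPM without and 5.50 ± 0.986 TPM with drug (SD, n = 3 each), and to 1.32 ± 0.0906 (SD, n = 3) and 6.76 ± 0.564 TPM (SD, n = 4) in H146. *WWTR1* made up 74.7% of this sum in untreated and 57.6% in treated H82, and 86.0% and 90.4% in H146. Both genes thus remained far below the TEAD genes, with 58.9 ± 10.2 TPM of TEAD per TPM of coactivator in untreated H82 and 20.9 ± 2.36 in treated H82. In H146 this ratio was 83.0 ± 3.59 and 17.0 ± 1.24. Untreated libraries were at 52.6 to 70.7 in H82 and 79.6 to 86.7 in H146, and treated libraries lay closer together, at 19.1 to 23.6 and 15.5 to 18.6, still without overlap between the lines.

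Fibroblasts and many epithelial cells carry *YAP1* and *WWTR1*, so marker genes of cell types were read beside these rises in the cell lines. The 6 fibroblast markers summed to 1.70 to 2.50 TPM in untreated H82, with 0 of 6 at a mean of 1 TPM and 1 at 0 in all libraries, and to 7.98 to 35.3 TPM in treated H82, with 5 of 6 at that mean. In H146 they summed to 6.78 to 8.78 TPM (2 of 6) and 17.1 to 32.7 TPM (3 of 6). The 4 epithelial markers summed to 1.49 to 3.16 and 8.02 to 63.4 TPM in H82 and to 1353 to 1377 and 522 to 589 TPM in H146. The 3 endothelial and 4 leukocyte markers summed to at most 2.62 and 7.25 TPM in any library. Any relation between these marker genes and the coactivator values was not tested. In bulk RNA, a change in the share of cells that carry a transcript and a change in its level per cell cannot be told apart.

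*VGLL4* (ENSG00000144560.16, chr3:11556069-11771350, minus strand) encodes the cofactor that competes with YAP1 and TAZ for TEAD. It was at 17.7, 16.3 and 17.6 TPM in untreated and 12.9, 19.4 and 18.2 TPM in treated H82. Treated replicate 1 lay below and the other two above the untreated libraries. The group difference was -0.05 on the log2 scale (95% confidence interval -0.49 to 0.39, limma adjusted *p* = 0.839), and -0.15 without treated replicate 2 (limma adjusted *p* = 0.561). Levels in H146 were 37.6, 46.2 and 35.6 TPM without and 49.2, 55.1, 34.1 and 35.4 TPM with drug, which is a change of 0.10 on the log2 scale (95% confidence interval -0.34 to 0.55, limma adjusted *p* = 0.684). Treated replicates 1 and 2 were above and 3 and 4 below the untreated range, so the spread among treated libraries exceeded the difference of the groups. All H146 libraries lay above all H82 libraries. *VGLL4* overlaps *ATG7* on the opposite strand, which stayed between 6.24 and 11.8 TPM in all libraries.

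*STK3* (ENSG00000104375.17, chr8:98371228-98942827, minus strand) encodes MST2, a kinase upstream of LATS1 and LATS2. It was at 4.96, 4.97 and 5.11 TPM in untreated and at 4.96, 6.52 and 6.18 TPM in treated H82. The log2 fold change was 0.19 (95% confidence interval -0.24 to 0.62, limma adjusted *p* = 0.403), or 0.12 without treated replicate 2 (limma adjusted *p* = 0.652). It passed after quantile normalization (1.0, limma adjusted *p* = 0.00447) and after scaling by the median of ratios (0.60, limma adjusted *p* = 0.0227). H146 had *STK3* at 9.31, 7.98 and 7.90 TPM without and at 11.5, 13, 9.23 and 10.5 TPM with drug. Treated replicate 3 fell just under the highest untreated library and the others lay above it. On the log2 scale the difference was 0.35 (95% confidence interval -0.00 to 0.71, limma adjusted *p* = 0.0929). The difference between the lines was 0.16 (95% confidence interval -0.30 to 0.63, limma interaction adjusted *p* = 0.528), and it turned to -0.55 with the median of ratios (limma interaction adjusted *p* = 0.0552) and to -0.98 with quantile normalization (limma interaction adjusted *p* = 0.00362). As with *VGLL4*, every H146 library was above every H82 library.

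*LATS1* (ENSG00000131023.13, chr6:149658153-149718105, minus strand) encodes 1 of the kinases that phosphorylate YAP1 and TAZ. It was at 44.3, 53.4 and 42.9 TPM in untreated and at 14.0, 23.1 and 26.4 TPM in treated H82. No treated library reached the untreated range, and replicate 1 was the lowest. The mean was 46.9 ± 5.67 without and 21.1 ± 6.44 TPM with drug (SD, n = 3 each), 2.22-fold lower, with a log2 fold change of -1.15 (SE 0.25, 95% confidence interval -1.73 to -0.57, limma adjusted *p* = 0.0061) and of -1.24 without treated replicate 2 (limma adjusted *p* = 0.0138). Median-of-ratios scaling reduced the change to -0.68 (limma adjusted *p* = 0.0344).

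In H146 *LATS1* was at 23.1, 21.4 and 16.2 TPM in untreated and at 22.4, 27.1, 31.4 and 33.6 TPM in treated libraries. Treated replicate 1 lay within the untreated range and the other treated libraries above it. The log2 fold change of 0.48 fell short of the threshold (95% confidence interval 0.07 to 0.89, limma adjusted *p* = 0.0564) and passed without treated replicate 1 (0.59, limma adjusted *p* = 0.0304) and with library weights (0.52, limma adjusted *p* = 0.00357). The change differed between the lines by 1.63 (95% confidence interval 0.95 to 2.31, limma interaction adjusted *p* = 0.000781), and by 0.85 with the median of ratios (limma interaction adjusted *p* = 0.0169). Untreated H82 stood above the other 3 groups, which overlapped with their neighbours.

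*LATS2* (ENSG00000150457.9, chr13:20973036-21061586, minus strand) encodes the partner kinase, and its gene is itself known as a target of YAP1 and TAZ. It was barely listed in H82, at 0.0344, 0 and 0.147 TPM without and at 0.150, 0.0498 and 0.0915 TPM with drug. The groups overlap (difference of mean log2(TPM + 1) 0.05, two-sided exact permutation *p* = 0.5, smallest possible 0.1). In H146 it was at 1.25, 1.15 and 1.06 TPM in untreated and at 3.29, 3.88, 2.79 and 2.75 TPM in treated libraries. All treated libraries lay above the untreated ones. The mean rose 2.75-fold, with a log2 fold change of 0.95 (SE 0.17, 95% confidence interval 0.56 to 1.34, limma adjusted *p* = 0.0027). The change was larger than in H82 by 0.90 (95% confidence interval 0.45 to 1.34, limma interaction adjusted *p* = 0.00255), and this difference did not pass with 0.1 added in place of 1 (1.0, limma interaction adjusted *p* = 0.126) or with quantile normalization (0.31, limma interaction adjusted *p* = 0.223).

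**Figure D3:**
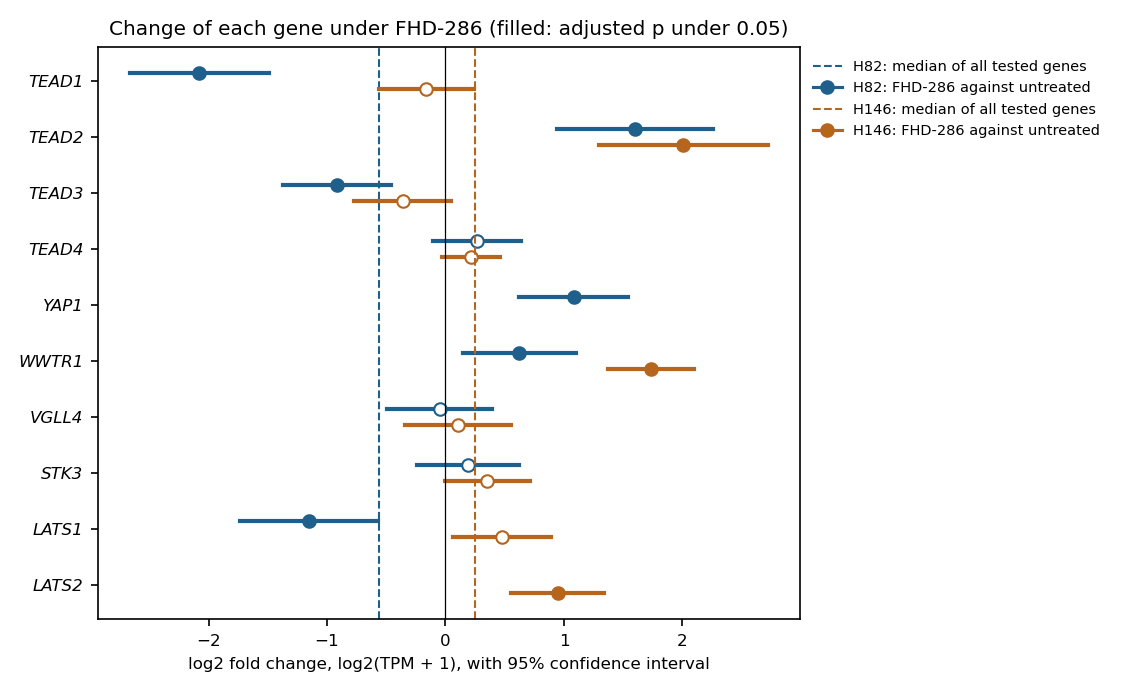
Log2 fold change of each gene with FHD-286 on log2(TPM + 1) in H82 and H146 (points, filled at a limma adjusted *p* under 0.05) with its 95% confidence interval (bars). Broken lines mark the median of all tested genes (-0.56 in H82, 0.25 in H146), and *YAP1* in H146 and *LATS2* in H82 have no point because they did not reach the filter. *TEAD1* and *LATS1* are the genes whose intervals in the 2 lines lie furthest apart.

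Over the 10 genes, the change with FHD-286 differed between the lines for 5, with 4 higher in H146 (*TEAD1*, *WWTR1*, *LATS1*, *LATS2*) and 1 lower (*YAP1*), against 59.3% of all 24374 genes, 46% higher and 13.3% lower. Without treated H82 replicate 2 these differences were 2.09 for *TEAD1*, 1.09 for *WWTR1*, 1.72 for *LATS1* and 0.87 for *LATS2*, with limma interaction adjusted *p* values of 0.000209, 0.00289, 0.00136 and 0.00708. For *TEAD2*, *TEAD3*, *TEAD4*, *VGLL4* and *STK3* the difference did not pass in this fit, which does not mean that the changes were alike, and for *TEAD2*, *TEAD3*, *TEAD4* and *STK3* it passed under at least 1 alternative given above.

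The untreated lines already differed in several of these genes. *TEAD2* was at 8.79 to 12.1 TPM in H82 and at 0.130 to 0.161 TPM in H146, while *LATS2* was at 1.06 to 1.25 TPM in H146 and at most 0.147 TPM in H82. *TEAD1*, *TEAD3*, *YAP1*, *WWTR1* and *LATS1* were higher in untreated H82 with no overlap, and *TEAD4*, *VGLL4* and *STK3* were higher in untreated H146 with no overlap. These levels come from 2 tables with the same sum per library and no further scaling, and they are given without a test.

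The other genes of the pathway were read from a list of 45 that holds partners of the kinases, scaffolds and junction proteins, the STRIPAK phosphatase complex, which opposes STK3, and *VGLL1* to *VGLL3*. In H82, 38 were tested, 3 were higher, 24 were lower and 11 did not pass, with a median log2 fold change of -0.67 beside -0.56 over all tested genes, of which 13.1% were called higher and 45.5% lower. The 3 that rose were *AJUBA*, a LIM protein that restrains LATS, *WWC1* (KIBRA, 0.73) and *TNIK* (0.74), the last 2 chosen after their values were seen because the count is small. *MAP4K1*, a kinase that can activate LATS in parallel to STK3, fell the most, from 17.1 ± 0.604 to 2.73 ± 0.621 TPM (SD, n = 3 each), by 2.29 on the log2 scale (limma adjusted *p* = 0.0002). The split depended on the scaling, with 6 higher and 6 lower by the median of ratios and 7 higher and 12 lower by quantiles. Over all 19770 tested genes, 4793 were higher and 6499 lower by the median of ratios, and 5070 and 5551 by quantiles. Without treated replicate 2 there were 2 higher and 22 lower of 37 tested, beside 1738 and 8187 of 19237 genes.

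In H146, 36 were tested, 19 were higher, 0 were lower (2 at an unadjusted limma *p* under 0.05, *RASSF1* and *STK24*) and 17 did not pass, with a median of 0.43 beside 0.25 over all tested genes, of which 32.5% were called higher and 15.5% lower. By the median of ratios 15 were higher and 5 lower, and by quantiles 15 were higher and 1 lower. Over all 19585 tested genes, 4165 were higher and 4917 lower by the median of ratios, and 4648 and 4103 by quantiles. The largest rise was that of *VGLL3*, a TEAD cofactor related to VGLL4, from 2.84 ± 0.578 (SD, n = 3) to 40.4 ± 7.36 TPM (SD, n = 4), or 3.42 on the log2 scale (limma adjusted *p* = 8.33e-06). The *VGLL4* mean in the same treated libraries was 43.5 ± 10.4 TPM (SD, n = 4), so the 2 cofactors lay within each other's spread there. In H82 *VGLL3* was listed at 0 in all untreated libraries and its mean was 0.0491 TPM with drug. The lowest change was that of *RASSF1*, at -0.64 (limma adjusted *p* = 0.0696). *AJUBA* rose in both lines, in H82 by 1.87 on the log2 scale (0.788 ± 0.0613 to 5.81 ± 2.20 TPM, limma adjusted *p* = 0.00154) and in H146 by 1.09 (1.54 ± 0.132 to 4.45 ± 0.923 TPM, limma adjusted *p* = 0.00223).

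By class, the kinase partners and adaptors (19 genes) gave 2 higher and 12 lower of 19 tested in H82, and 10 higher and 0 lower of 15 tested in H146. The scaffolds and junction proteins (13 genes) gave 1 higher and 6 lower of 9, and 5 higher and 0 lower of 10. The STRIPAK genes (10) gave 0 higher and 6 lower of 10, and 3 higher and 0 lower of 10. At an unadjusted limma *p* under 0.05, the counts of 0 were still 0 except for 1 lower scaffold gene and 1 lower STRIPAK gene in H146. These counts stand beside the same shares of all tested genes and moved with the scaling, as did the counts over all genes given above. By the median of ratios the 3 classes, in this order, had 3, 2 and 1 higher and 3, 1 and 2 lower genes in H82, and 7, 5 and 2 higher and 0, 2 and 3 lower in H146. By quantiles they had 4, 3 and 0 higher and 7, 2 and 3 lower in H82, and 7, 5 and 2 higher and 0, 0 and 1 lower in H146.

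**Figure D4:**
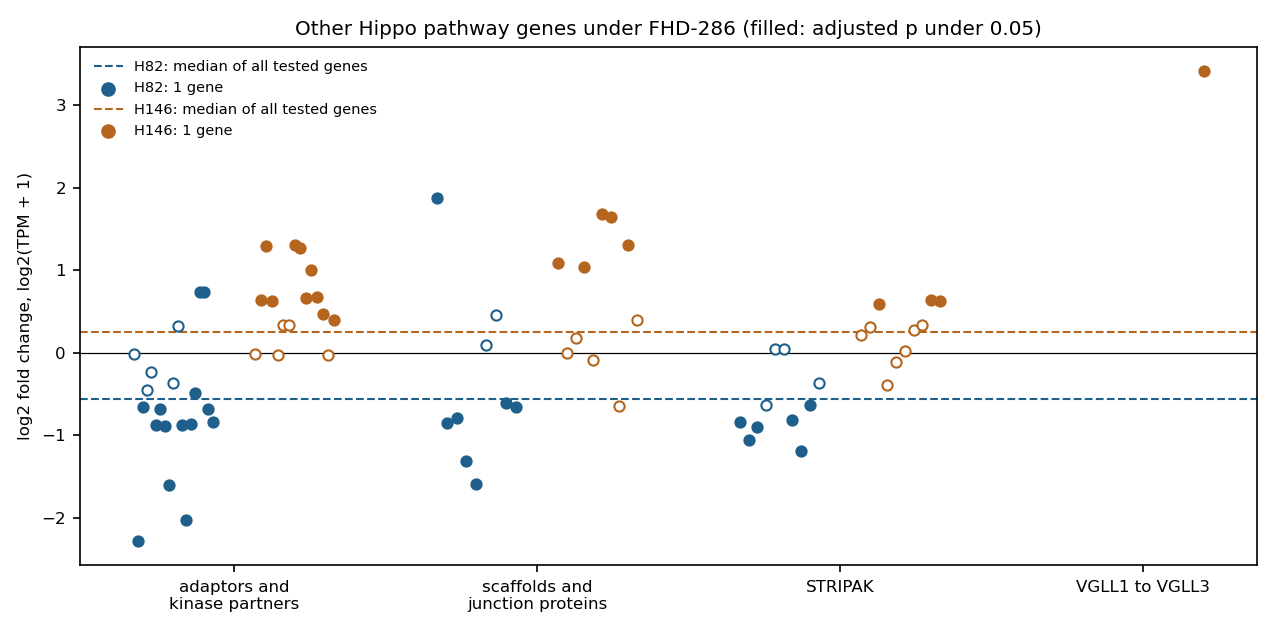
Log2 fold change with FHD-286 on log2(TPM + 1) of each tested gene of the list of 45 other Hippo pathway genes, by class (filled at a limma adjusted *p* under 0.05), with the median of all tested genes as broken lines. Most H82 points lie below 0 and most H146 points above it, and *VGLL3* in H146 stands alone at 3.42.

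A list of 22 genes commonly used as a readout of YAP1 and TAZ, which holds *LATS2* as well and shares *AMOTL2* and *PTPN14* with the list of 45, gave 14 tested genes in each line. In H82, 3 were higher (*FJX1*, *CYR61*, *RBMS3*) and 3 lower (*AMOTL2*, *CRIM1*, *ARHGEF17*), with a median log2 fold change of -0.03 beside -0.56 over all genes (13.1% higher, 45.5% lower). This count became 5 higher and 2 lower by the median of ratios (median 0.35), 9 and 2 by quantiles (median 0.84), and 2 and 3 of 13 tested without treated replicate 2 (median -0.32). Over all tested genes the medians under these settings were -0.14, -0.05 and -0.59, with the counts given above beside the list of 45. In H146, 6 were higher and 2 lower (*GADD45A*, *NUAK2*), with a median of 0.74 beside 0.25 over all genes (32.5% higher, 15.5% lower). The counts were 6 and 2 under both scalings. Their medians were 0.56 by the median of ratios and 0.50 by quantiles, beside -0.02 and 0.06 over all genes. *CYR61*, a secreted matrix protein, rose from 2.03 ± 0.817 to 4.59 ± 0.465 TPM in H82 (0.92, limma adjusted *p* = 0.0164) and stood at 1.36 ± 0.791 and 3.39 ± 1.56 TPM in H146 (0.90, limma adjusted *p* = 0.0557). *CTGF*, a relative of it, was listed at 0 in all untreated H82 libraries and averaged 1.22 ± 0.647 TPM in the treated ones (SD, n = 3), below the filter, and at 3.95 ± 0.959 and 3.75 ± 0.716 TPM in H146 (-0.05, limma adjusted *p* = 0.841).

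The largest rise and fall of that list were *FJX1* (2.20, limma adjusted *p* = 0.00345) and *AMOTL2* (-1.31, limma adjusted *p* = 0.0179) in H82, and *ASAP1* (1.98, limma adjusted *p* = 0.000186) and *GADD45A* in H146 (-2.06, limma adjusted *p* = 0.0148). *FJX1* rose in both lines. *AMOTL2*, *CRIM1* and *ARHGEF17* fell in H82 and rose in H146.

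Across the 13 libraries, after the mean of each line was taken off, the 10 genes varied together in part. *WWTR1* and *LATS2* had a Pearson r of 0.93, *TEAD2* and *WWTR1* 0.86, *TEAD2* and *YAP1* 0.85, *TEAD2* and *TEAD4* 0.85 and *TEAD1* and *LATS1* 0.83, while *TEAD1* and *YAP1* had -0.83. These values are descriptions over libraries that share lines and treatment. Of 15678 genes tested in both lines, those most like *TEAD2* by the same measure were *CCDC56* (0.99), *SPG21* (0.99) and *ABT1* (0.99). Among those most like *WWTR1* were *TXNRD1* (0.98) and *ZFP36L1* (0.97), and those most like *YAP1* were *GPC3* (0.97), *DLX2* (0.97) and *AJUBA* (0.97).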

How the data were processed

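Total RNA of H82 and H146 cells was sequenced. Per the study's methods, reads were mapped to hg38 and counted per gene with STAR and GENCODE release 28, and the authors used DESeq2 for their own comparison, which was not used here. The submitters' processing notes also name Trim Galore 0.4.4, without a role. The authors deposited 1 table of TPM values per line, with 56831 genes and no pooled columns, and each column sums to 1000000. TPM keeps no read depth, no scaling between libraries was applied beyond that sum, and neither how gene length was taken nor whether counting used strand is stated, so overlapping genes on opposite strands may share reads.

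Each line was fitted with limma 3.58.1 in R 4.3.3 (lmFit, eBayes with trend) on log2(TPM + 1), keeping genes that reached 1 TPM in 3 or more libraries of the line, with treated against untreated as the only term, Benjamini-Hochberg adjustment over all tested genes and a threshold of 0.05. The difference between lines was the interaction in 1 fit over 13 libraries. Members below the filter were compared by an exact permutation test (scipy 1.17.1). The fits were run on simulated data with few changed genes, independent noise and no shift of whole libraries. That setting differs from these data, so it cannot speak to calls that moved with the scaling. The genes and lists were chosen with earlier results of these data known. All 10 genes are named. Of the other lists, the largest rise and fall in each line, *AJUBA*, *CYR61* and *CTGF* are named, with the 3 genes most like *TEAD2*, *YAP1* and *WWTR1*, of which 1 is not reported here. Other genes named where a count was small were chosen after their values were seen. Coordinates come from GENCODE release 44 (hg38) and promoter windows from RefSeq (GRCh38.p14). Promoters of *TEAD1*, *TEAD4* and *STK3* and protein sequences were not used here. Numbers in the labels did not pair treated with untreated libraries (correlation of deviations from group means -0.11 to 0.03 for equal numbers). Alternative settings were 0.1 as the pseudocount, no filter, a mean above 2 TPM, scaling by the median of ratios or by quantiles, the replicate number as a block, no trend, library weights and leaving out each library. The ratio of mean TPM on a log2 scale, without any pseudocount, was chosen after seeing the data.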

Additional observations from a re-analysis of the deposited data

Results flagged for a closer look

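For 5 of the 10 genes, the change with FHD-286 differed between H146 and H82 by the limma interaction test. Such a difference passed for 59.3% of all 24374 genes. It is given here as the log2 fold change in H146 minus that in H82. The difference was 1.92 for *TEAD1* (95% confidence interval 1.24 to 2.59), 1.63 for *LATS1* (0.95 to 2.31), 1.11 for *WWTR1* (0.62 to 1.60), 0.90 for *LATS2* (0.45 to 1.34) and -0.61 for *YAP1* (-1.08 to -0.15). *TEAD1* and *LATS1* fell in H82, while *WWTR1* rose in both lines. With the median of ratios the difference was 1.14 for *TEAD1*, 0.85 for *LATS1*, 0.63 for *LATS2* and -1.0 for *YAP1*, which passed. For *WWTR1* it was 0.51 and did not pass (limma interaction adjusted *p* = 0.0753). With 0.1 added in place of 1, *YAP1* and *LATS2* did not pass (limma interaction adjusted *p* = 0.394 and 0.126). With quantile normalization, *WWTR1* and *LATS2* did not pass (limma interaction adjusted *p* = 0.331 and 0.223). *YAP1* and *LATS2* were each below 1 TPM in all libraries of 1 line, where adding 1 limits how far a change can show. The median difference over all 24374 genes was 0.75, and it was 0.17 with the median of ratios. In the group of 4, *YAP1* was highest in treated H146 replicate 3, at 0.937 TPM against 0.471 to 0.588 TPM in the others. Groups of 3 are too small to tell whether a library lies far from the others.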

How the results depend on the processing

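Of 257 values of single genes within a line under the alternatives, 223 kept their direction and their side of the threshold, 9 that passed neither way turned sign (*TEAD4* and *VGLL4*), 15 passed only under the alternative and 10 no longer passed. Of the 175 for the difference between lines, 152 kept both, 9 that passed neither way turned sign (*TEAD2*, *TEAD3*, *TEAD4*, *VGLL4*, *STK3*), 3 passed only under the alternative, 9 no longer passed and 2 turned sign with a call in 1 of the 2 settings. With quantile normalization the difference for *WWTR1* was -0.30 (limma adjusted *p* = 0.331) and that for *STK3* was -0.98 (limma adjusted *p* = 0.00362). The cause was not tested.

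In H82 the number of the 10 genes called higher, 3, became 5 after scaling by the median of ratios, 5 after quantile normalization and 1 among genes with a mean above 2 TPM, and ranged from 1 to 3 when each library was left out (1 without treated replicate 2 or 3). The number called lower, 3, was 2 with either scaling and 3 without any one library. In H146 the number called higher, 3, became 5 with library weights and 4 without the filter, where *YAP1* was tested and called. It ranged from 3 to 4 with each library left out. The number called lower, 0, became 2 after scaling by the median of ratios, 1 after quantile normalization and 2 with library weights, and ranged from 0 to 1 (1, *TEAD3*, without treated replicate 2). Of the differences between lines, those higher in H146, 4, became 2 with quantile normalization and ranged from 4 to 5. Those lower, 1 (*YAP1*), became 0 with a pseudocount of 0.1, 0 with a mean above 2 TPM, 2 with the median of ratios and 2 with quantile normalization, and ranged from 0 to 1 with each library left out.

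With the replicate number as a block, 2 of the genes were higher and 3 lower in H82 (*WWTR1* at 0.62, limma adjusted *p* = 0.0693), and 3 higher and 0 lower in H146. The libraries share only a number, and the block changed no other call of the 10 genes.

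Over all genes, higher and lower calls in H82 were 4793 and 6499 with the median of ratios, 5070 and 5551 with quantile normalization and 3975 and 10478 with library weights, and 1676 to 3503 and 4291 to 9957 with a library left out. In H146 they were 4165 and 4917, 4648 and 4103, and 9151 and 4806, and 4287 to 7480 and 1812 to 3729. The tables hold no depth, so for genes near 0 TPM (*YAP1*, *LATS2* in H82, *TEAD2* in untreated H146) counting error is unknown. The ratio of mean TPM on a log2 scale, without any pseudocount and chosen after seeing the data, was 4.74 for *TEAD2*, 2.43 for *WWTR1* and 1.46 for *LATS2* in H146, and 2.05 for *YAP1* and 0.90 for *WWTR1* in H82.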

Other observations

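Genes whose pattern over the libraries was among the most like *YAP1* and *WWTR1* are given here with their values, and those named rose in both lines. *GPC3*, a glypican of the cell surface, went from 3.63 ± 1.27 to 28.3 ± 6.45 TPM (SD, n = 3 each) in H82 and from 0.635 ± 0.169 (SD, n = 3) to 3.18 ± 1.82 TPM (SD, n = 4) in H146, with log2 fold changes of 2.68 and 1.25 (limma adjusted *p* = 0.00035 and 0.015). *DLX2*, a homeobox factor of the forebrain, went from 1.24 ± 0.407 to 23.7 ± 5.41 TPM in H82 and from 325 ± 2.78 to 613 ± 137 TPM in H146 (3.45 and 0.88, limma adjusted *p* = 0.000139 and 0.00608). *ZFP36L1*, an RNA-binding protein that promotes decay of its target mRNAs, went from 6.69 ± 0.430 to 15.5 ± 2.91 TPM in H82 and from 3.28 ± 0.758 to 72.1 ± 9.38 TPM in H146 (1.09 and 4.10, limma adjusted *p* = 0.00266 and 2.9e-06). These genes were picked for this likeness, so their changes are descriptions.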
